A study of Mus musculus with 2 samples.

Results

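The genes described here are 10 transcription factors that build and direct the red cell program, Klf1, Gata1, Gata2, Tal1, Nfe2, Lmo2, Zfpm1, Bcl11a, Myb and Gfi1b. They were chosen by name. The labels number the 2 samples as replicates 1 and 2, and these are called lanes 1 and 2 here. All 10 genes were detected in both lanes, among 20758 genes with a unique molecular identifier (UMI, the tag of 1 captured transcript) in lane 1 and 20869 in lane 2. They were followed through 6402 erythroid-like cells ordered by the share of globin among their UMIs, and in 132 megakaryocyte-like, 49 endothelial-like and 1982 stromal-like cells of the same sample. The cells were Lin-CD45- cells pooled from the digested femurs and tibiae of 3 male INK-ATTAC mice on a C57BL/6N background, 24 months old and untreated, captured in droplets and read from the 3′ end of each transcript. INK-ATTAC mice carry a transgene in which the p16Ink4a promoter drives a caspase 8 that only acts once a dimerizing drug is given, so all cells come from transgenic animals that received no drug. Cells bearing lineage markers, the late red cell antigen Ter-119 among them, had been removed by magnetic depletion, and the marrow had been treated with a lysis buffer against red cells. The label calls the cells mesenchymal, whereas 66.9% of the 9573 barcodes kept were erythroid-like and 20.7% stromal-like.

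Red cell formation runs on a small set of DNA-binding proteins that work in complexes. GATA2 holds progenitors in an immature state together with MYB. GATA1, induced later, binds many of the same sites, shuts Gata2 down with its cofactor ZFPM1 (FOG1) and takes over, in the exchange known as the GATA switch. TAL1 and LMO2 form the bridge complex that brings GATA1 and E-proteins together, KLF1 activates globin, heme and membrane genes through CACCC boxes, NFE2 works at the globin locus control region and in platelet formation, GFI1B recruits histone demethylases and deacetylases, and BCL11A represses embryonic and fetal globin genes.

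The lanes carried the same cells, with 10928 of 11056 barcodes in both and lane differences below sampling noise (squared differences at 0.559 of the summed counts, against 1 for independent sampling), so they count as 1 sample. With a single pool of mice there is no test across animals, and every interval given is an exact 95% interval for counting error only, taken on the mean of the lanes. Levels are depth-scaled counts (CPM), a gene's UMIs divided by all UMIs of a group's summed cells and multiplied by 1e6. A 3′ UMI count tallies transcripts and does not grow with transcript length, so it was not divided by length. The 5 globin stages, cut at 0.5%, 1%, 2.5% and 6% of UMIs, held 1911, 793, 1628, 1493 and 577 cells with a median of 10551, 11102, 41615, 42161 and 33863 UMIs. Their order was checked on genes outside the 10. Kit, the stem cell factor receptor, went from 32.4 CPM in the first stage to 0.729 CPM in the last. Slc4a1, the band 3 anion exchanger, went from 35.6 to 810 CPM and Alas2, the erythroid enzyme that starts heme synthesis, from 12.4 to 261 CPM. Cd34, a marker of early progenitors, was at 0.145 CPM or less in every stage, and Mki67, a marker of dividing cells, was at 1024, 1407, 1259, 1229 and 1329 CPM, and at 595, 860, 1049, 1151 and 1298 CPM without the clusters led by Gm26917, Lars2 or Hspa1b. Clusters led by Gm26917, Lars2 or Hspa1b, with 5806 UMIs in the median first-stage cell, made up 1019 of the 1911 first-stage cells but 52 of the 577 last-stage cells.

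Gata2, Myb and Bcl11a were the members that fell at least 2-fold from the first to the last globin stage, and Nfe2 was the member that rose as far. Over all 10584 genes compared, 30.5% fell and 3.96% rose at least 2-fold, and the median log2 ratio was -0.54. The count of 3 falling members of 10 is therefore near the share of all genes, and the levels are read gene by gene. Without the clusters led by Gm26917, Lars2 or Hspa1b the counts were again 3 and 1, beside 27.7% and 5.42% of 10302 genes.

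**Figure D1:**
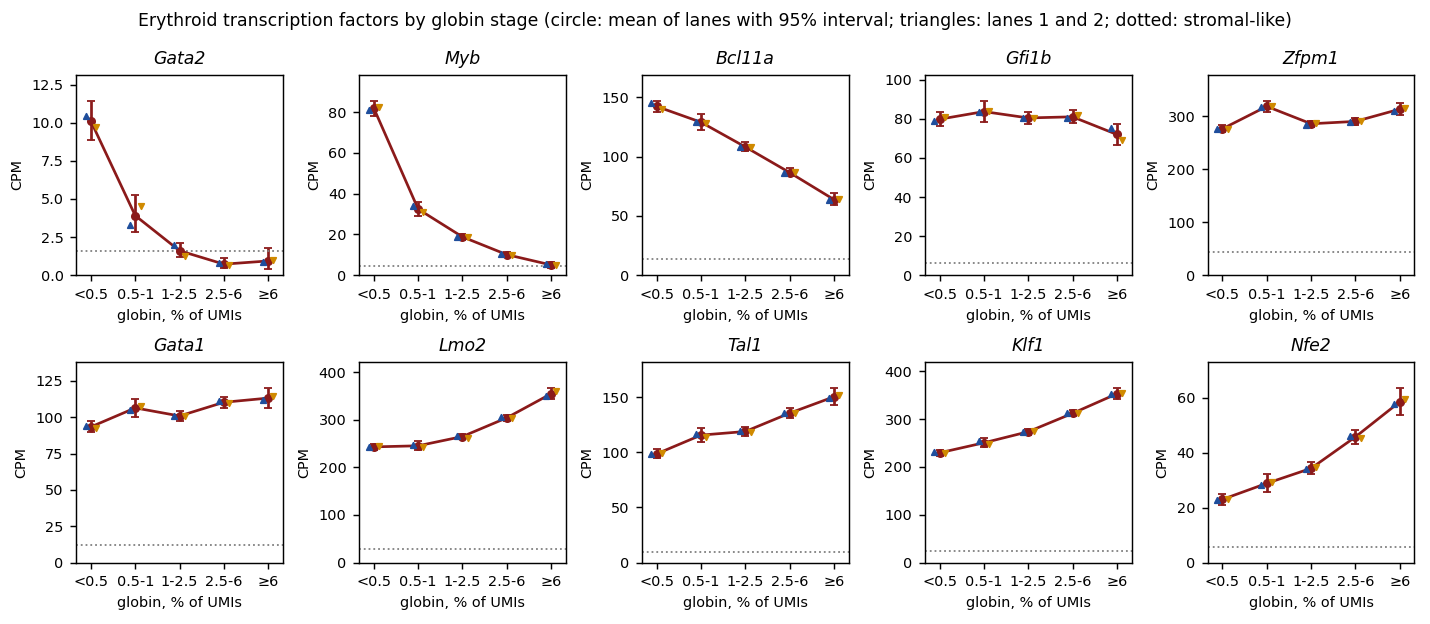
Level of each factor in CPM (vertical axes, from 0) in the 5 globin stages, given as percent of UMIs (horizontal axes), with circles for the mean of the lanes, bars for exact 95% intervals, triangles for lanes 1 and 2 and a dotted line for the stromal-like cells. Gata2 and Myb drop to the pooled stromal-like level, Bcl11a drops step by step from 142 to 63.8 CPM, and Nfe2 climbs from 23.0 to 58.4 CPM.

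Gata2, the progenitor GATA factor, was at 10.4 CPM in lane 1 and 9.75 CPM in lane 2 of the first stage, and at 0.846 and 1.03 CPM in the last. Its mean level was 10.1 CPM (8.86 to 11.4), then 3.91, 1.61, 0.727 and 0.937 CPM (0.428 to 1.78). Both lanes, which hold the same cells, were higher in the first stage than either was later. The last 2 stages did not differ beyond counting error. The fall was 10.8-fold, or -3.43 on the log2 scale (-4.58 to -2.48), and -4.41 with cells ordered by 7 late erythroid genes other than globin. The last-stage level rests on few cells: both lanes summed gave 18 Gata2 UMIs in 5 of 577 cells, 12 of them in a single cell. Stromal-like cells held 1.57 CPM (0.720 to 2.99), an interval that met those of the 2 late stages, and the part of free RNA in these levels was not tested. That level is pooled, and the stromal-like clusters of 1077 and 864 cells held 1.04 and 2.99 CPM.

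Myb, which keeps progenitors dividing, was at 81.1 and 82.6 CPM in the lanes of the first stage and at 5.29 and 4.82 CPM in the last. The mean went from 81.9 CPM (78.3 to 85.6) through 32.4, 18.8 and 10.1 to 5.05 CPM (3.73 to 6.69), a lower level at each step. The fall was 16.2-fold (log2 ratio -4.02, -4.46 to -3.61). The last level again met the pooled level of the stromal-like cells, 4.37 CPM (2.83 to 6.46). The stromal-like clusters of 1077 and 864 cells held 2.86 and 8.37 CPM, both outside the interval of the last stage. Gata2 and Myb both fell at the first step, with log2 ratios of -1.37 and -1.34 from under 0.5% to 0.5 to 1% globin, where 3.16% of all genes fell and 1.05% rose at least 2-fold. From there Gata2, as the mean of the lanes, fell 2-fold or more again at the next 2 steps, where 1.69% and 2.08% of all genes did, and Myb at the last step, where 4.48% did. These calls lie near the limit. The Gata2 log2 ratios were -1.28 (-1.90 to -0.66) and -1.14 (-1.95 to -0.38), and that of Myb was -1.001 (-1.47 to -0.56). Each of these intervals reaches under 2-fold. No member rose 2-fold within 1 step, as 0.496%, 0.264% and 0.274% of all genes did in the later 3 steps.

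Bcl11a followed a slower course. Its level was 145 and 140 CPM in the lanes of the first stage and 63.4 and 64.1 CPM in the last, with means of 142, 129, 108, 86.5 and 63.8 CPM. Every step down was larger than counting error, and the last step was the largest at -0.44 on the log2 scale (-0.57 to -0.31). The whole fall was 2.23-fold (log2 -1.16, -1.28 to -1.03). It came under 2-fold, at log2 -0.70, when cells were ordered by the 7 late genes. In 20 bins of equal cell number, Bcl11a was not highest at the start but in the fourth bin, at a median globin share of 0.241%, with 157 CPM (143 to 171), and lowest in the last with 53.0 CPM.

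Gata1 changed little over the summed stages. Its level was 94.2 and 92.6 CPM in the lanes of the first stage and 112 and 114 CPM in the last, with means of 93.4, 106, 101, 110 and 113 CPM. The rise over the whole series was 1.21-fold (log2 0.28, 0.17 to 0.38), small beside the change in Gata2, and the step from 2.5 to 6% to the last stage lay within counting error. Clusters led by Gm26917, Lars2 or Hspa1b held less Gata1 and gave no steady rise, at 72.9, 92.3, 83.6, 77.9 and 68.3 CPM (39.0 to 111 in the last), and the others went from 96.9 to 114 CPM. Single clusters ranged from 48.7 to 113 CPM at 1 to 2.5% globin.

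The switch can be read within the same cells as Gata2 UMIs per Gata1 UMI, where the scaling to total UMIs cancels. First-stage cells held 0.108 Gata2 UMIs per Gata1 UMI (0.0943 to 0.123), 0.111 in lane 1 and 0.105 in lane 2. The ratio was 0.0367 in the second stage (0.0265 to 0.0497), 0.0159 at 1 to 2.5% globin (0.0117 to 0.0212), 0.00659 at 2.5 to 6% (0.00410 to 0.01004) and 0.00828 in the last (0.00378 to 0.0158). Gata1 UMIs thus outnumbered those of Gata2 by 9.25 to 1 already in the first stage, and by 152 to 1 at 2.5 to 6% globin. Without the clusters led by Gm26917, Lars2 or Hspa1b the first ratio was 0.108 and the last 0.00840.

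Finer bins showed that part of this change lay inside the first stage. In the 321 cells with the least globin (median 0.0478% of UMIs) there were 0.211 Gata2 UMIs per Gata1 UMI (0.169 to 0.261), with Gata2 at 17.8 CPM, Gata1 at 84.2 CPM and Myb at 146 CPM. The ratio was 0.134 in the second bin, 0.0877 in the next and 0.0599 in the fourth, and then held near 0.05 for 3 bins. It stood at 0.0356 at a median globin share of 0.788% and at 0.0120 (0.00440 to 0.0264) at 1.02%. Later bins held few Gata2 UMIs. Their order was not smooth, with 20 Gata2 UMIs at a median share of 1.82% against 4.5 in the bin before, as means of the lanes. At no point did Gata2 UMIs outnumber those of Gata1 in a bin of erythroid-like cells.

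**Figure D2:**
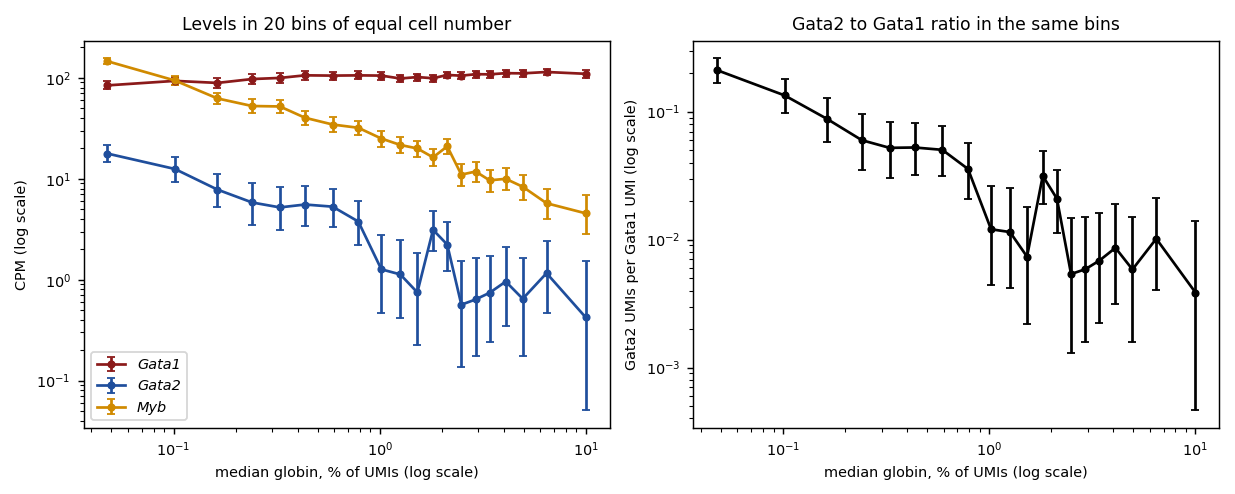
Left, CPM of Gata1, Gata2 and Myb (log scale) against the median globin share of 20 bins of equal cell number (log scale, percent of UMIs); right, Gata2 UMIs per Gata1 UMI (log scale) in the same bins, with exact 95% intervals. Gata1 moves between 84.2 and 114 CPM while the ratio goes from 0.211 in the first bin to 0.00386 in the last.

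Co-detection in single cells was limited by depth. With each cell of lane 1 thinned to 2000 UMIs, 30 of 1613 first-stage cells had a Gata2 UMI without Gata1 and 2 had both, together 1.98% (1.36 to 2.79%). In the last stage 0 of 566 thinned cells had a Gata2 UMI, and at 2000 UMIs per cell a count of 0 limits the share with a UMI to 0.650%, while 5 of the 577 unthinned cells had one over both lanes. A Gata1 UMI was seen in 15.9% of thinned first-stage cells (14.1 to 17.7%) and 20.1% of last-stage cells (16.9 to 23.7%), against 1.33% of stromal-like cells (0.789 to 2.09%). Unthinned, 159 of the 1911 first-stage cells carried both factors, and 5 of the 577 last-stage cells did.

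Nfe2, a subunit of the NF-E2 factor, rose at every step. The lanes gave 22.7 and 23.2 CPM in the first stage and 57.5 and 59.3 CPM in the last, and the means were 23.0, 28.8, 34.2, 45.7 and 58.4 CPM. The rise was 2.54-fold (log2 1.35, 1.18 to 1.52), while 3.96% of all genes rose 2-fold or more. In the bin with the most globin Nfe2 reached 66.1 CPM (59.0 to 73.9).

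Klf1, the activator of globin and heme genes, was abundant from the start and rose without a break. Lane values were 230 and 229 CPM in the first stage and 352 and 354 CPM in the last, with means of 229, 250, 274, 312 and 353 CPM. The ratio was 1.54-fold (log2 0.62, 0.56 to 0.68). Tal1, the bridge complex subunit that contacts DNA, was at 98.2 and 99.1 CPM in the lanes of the first stage and 149 and 152 CPM in the last. Its means were 98.6, 115.6, 119, 136 and 150 CPM, a 1.52-fold rise (log2 0.61, 0.51 to 0.70), with the stages on either side of 1% globin not separated beyond counting error.

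Lmo2, the adaptor that joins TAL1 to GATA1, was at 242 and 244 CPM in the lanes of the first stage and 349 and 360 CPM in the last. Its means were 243, 245, 265, 304 and 355 CPM, a 1.46-fold rise (log2 0.55, 0.48 to 0.61) in which the first 2 stages did not differ beyond counting error. Among erythroid-like cells, Lmo2 was held at a lower level by the clusters led by Gm26917, Lars2 or Hspa1b, at 133 to 167 CPM over the stages, and without them it went from 262 to 360 CPM (log2 0.46). These rises of Klf1, Tal1, Lmo2 and Gata1 are small, but the median gene fell by 0.54 on the same log2 scale. All were lower in the last stage per 1000 UMIs of 19 erythroid markers other than globin, which themselves rose from 10730 to 18210 CPM. On that scale Klf1 went from 21.4 to 19.4, Tal1 from 9.19 to 8.26, Lmo2 from 22.7 to 19.5 and Gata1 from 8.70 to 6.22 UMIs. When globin UMIs, 9.11% of all UMIs in the last stage and 0.198% in the first, were left out of the total, the log2 ratios of Klf1 and Gata1 became 0.76 and 0.41, and those of Tal1 and Lmo2 0.74 and 0.68.

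Zfpm1, the GATA1 cofactor FOG1, changed in size with the cells and in direction with the averaging. Its lanes gave 276 and 276 CPM in the first stage and 310 and 316 CPM in the last, and the means of 276, 318, 285, 290 and 313 CPM had no steady course (log2 0.18, 0.12 to 0.24). Clusters led by Gm26917, Lars2 or Hspa1b held 729, 790, 764, 701 and 777 CPM of Zfpm1 in the 5 stages. The other erythroid-like clusters held 198, 230, 241, 269 and 301 CPM, a rise at every step and 1.52-fold in all (log2 0.60, 0.53 to 0.67). As an average of single-cell CPM values, which weights the shallow cells as much as the deep ones, the log2 ratio turned to -0.59. The shallow clusters thus carried more Zfpm1 and less Lmo2 per UMI than the others at every stage, and their median cell had 5806 to 8639 UMIs against 36219 to 57877. Mitochondrial UMIs were 3.30 to 7.17% of theirs over the stages against 2.84 to 3.49% in the others, and Mki67 was at 3522 against 595 CPM in the first stage; their part in the result was not tested.

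**Figure D3:**
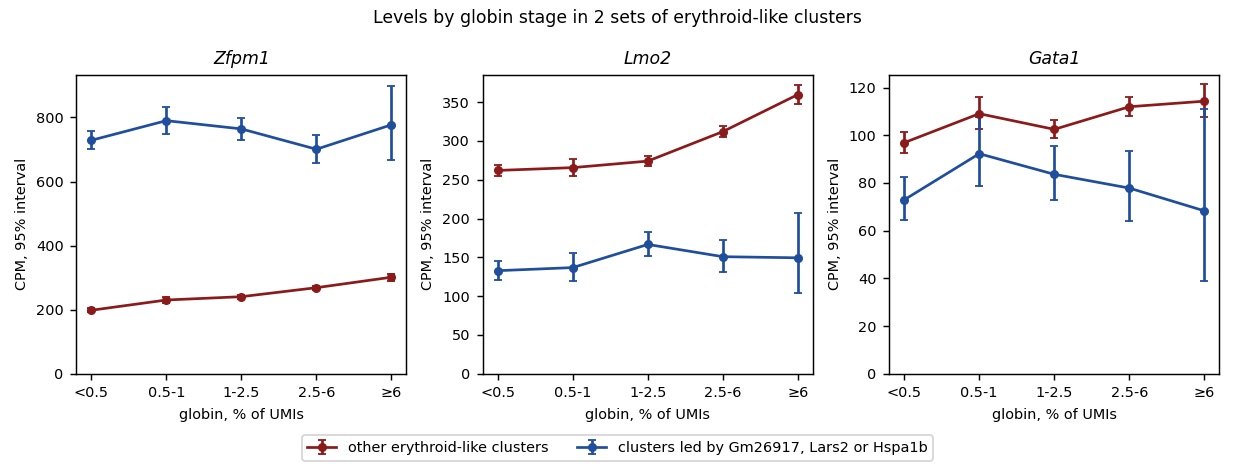
CPM of Zfpm1, Lmo2 and Gata1 with exact 95% intervals by globin stage (percent of UMIs), in erythroid-like clusters led by Gm26917, Lars2 or Hspa1b (blue) and in the others (red). Zfpm1 lies between 701 and 790 CPM in the blue set and between 198 and 301 CPM in the red set, while Lmo2 is lower in the blue set.

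Gfi1b, a zinc finger repressor, was close to level. Lanes gave 78.9 and 80.7 CPM in the first stage and 75.2 and 68.9 CPM in the last, with means of 79.8, 83.7, 80.4, 81.0 and 72.0 CPM. The log2 ratio of -0.15 (-0.28 to -0.02) came to -0.01 when globin UMIs were left out of the total.

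A further 250 barcodes formed a cluster with 20 of 23 erythroid markers, a globin share of 17.9% and a median of 1640 UMIs, which stayed outside the erythroid-like class because of its low depth and the lack of a marker among its 10 leading genes. Among its leading genes were Slfn14, Xpo7 and Tmcc2, and it held 3613 CPM of Slc4a1 and 1197 CPM of Alas2. Nfe2 stood at 652 CPM in lane 1 and 620 CPM in lane 2 (mean 636, 542 to 742), far above the 58.4 CPM of the last stage. Lmo2 was at 438 CPM (360 to 527) and Tal1 at 159 CPM (114 to 216), the latter not separated from the last stage. Klf1 at 128 CPM (87.5 to 180), Zfpm1 at 145 CPM (102 to 200), Gata1 at 35.3 CPM (16.2 to 67.1), Gfi1b at 17.7 CPM (5.30 to 43.0) and Bcl11a at 27.5 CPM (11.05 to 56.6) were lower than in the last stage, while Myb rested on 5 and 7 UMIs in the lanes. No Gata2 UMI was found in these cells, which at 3 counts allows up to 11.8 CPM.

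The proteins that act with these factors were followed as lists. Of 12 tested partners of the LMO2 and TAL1 complex, 5 fell and 0 rose at least 2-fold (30.5% and 3.96% of all genes did), with a median log2 ratio of -0.76 beside -0.54 for all genes. Cbfa2t3, the ETO2 corepressor, went from 27.1 to 2.39 CPM (log2 -3.50, -4.17 to -2.90), and Lmo4, a relative of Lmo2, from 7.19 to 0.989 CPM (log2 -2.86). The E-protein gene Tcf4 went from 34.2 to 15.4 CPM, and the core adaptor Ldb1 from 88.5 to 50.3 CPM, which is less than 2-fold. Corepressors of ZFPM1, BCL11A and GFI1B held 1 of 14 genes that fell 2-fold, beside 30.5% of all genes. It was the helicase gene Chd4 (296 to 131 CPM), and their median of -0.54 was that of all genes. Of 7 partners and relatives of NFE2, 5 were tested and 1 fell, beside 30.5% of all genes, and the median log2 ratio of the 5 was -0.20. The small MAF genes Mafg and Mafk were at 41.9 and 14.2 CPM in the first stage and 36.5 and 17.3 CPM in the last, while Nfe2l2, the NRF2 gene, fell 2.31-fold.

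Of 17 other erythroid regulators, 2 rose and 3 fell at least 2-fold, beside 3.96% and 30.5% of all genes, and their median log2 ratio was -0.23. E2f2, which acts in the last divisions, went from 44.4 to 185 CPM (log2 2.06, 1.95 to 2.17) and Sox6, which works with BCL11A, from 55.0 to 206 CPM (log2 1.90, 1.80 to 2.01), both larger rises than that of Nfe2. Stat5a, which relays the erythropoietin signal, fell 9.33-fold, and Zfp36l2, an RNA-binding protein of early progenitors, 4.71-fold. Regulators of stem, myeloid and megakaryocyte cells were sparse, with 5 of 16 genes reaching 20 UMIs. Of these 3 fell, beside 30.5% of all genes, and the median log2 ratio of the 5 was -2.11. The limit counts UMIs over both stages, and in lane 1 the first stage held 23744457 UMIs against 9459761 in the last. Sparse genes high in the first stage thus passed it more easily, so this count is not read as a result. Hhex went from 4.97 to 0.104 CPM (log2 -5.58, -10.89 to -3.07) and Etv6, an ETS family repressor, from 8.75 to 2.03 CPM. Of 12 progenitor genes 7 were tested under the same limit. Of these 4 fell, beside 30.5% of all genes, among them Kit (44.5-fold) and Myc (2.73-fold). The median log2 ratio of the 7 was -1.19 beside -0.54 for all genes.

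Non-globin targets of GATA1 and KLF1 were higher in the last stage for most of the list, with 19 of 35 up and 1 down at least 2-fold, beside 3.96% and 30.5% of all genes, and a median log2 ratio of 1.05. Slc4a1 rose 22.7-fold, Alas2 21.04-fold and the mitochondrial iron importer Slc25a37 5.73-fold. Without the clusters led by Gm26917, Lars2 or Hspa1b, Slc4a1 went from 22.7 to 813 CPM and Alas2 from 8.43 to 261 CPM. Over the same stages Gata1 itself rose 1.21-fold and Klf1 1.54-fold. Stages were cut by globin share, and these targets are known to be made together with globin, so the direction of this list is not independent of the ordering.

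**Figure D4:**
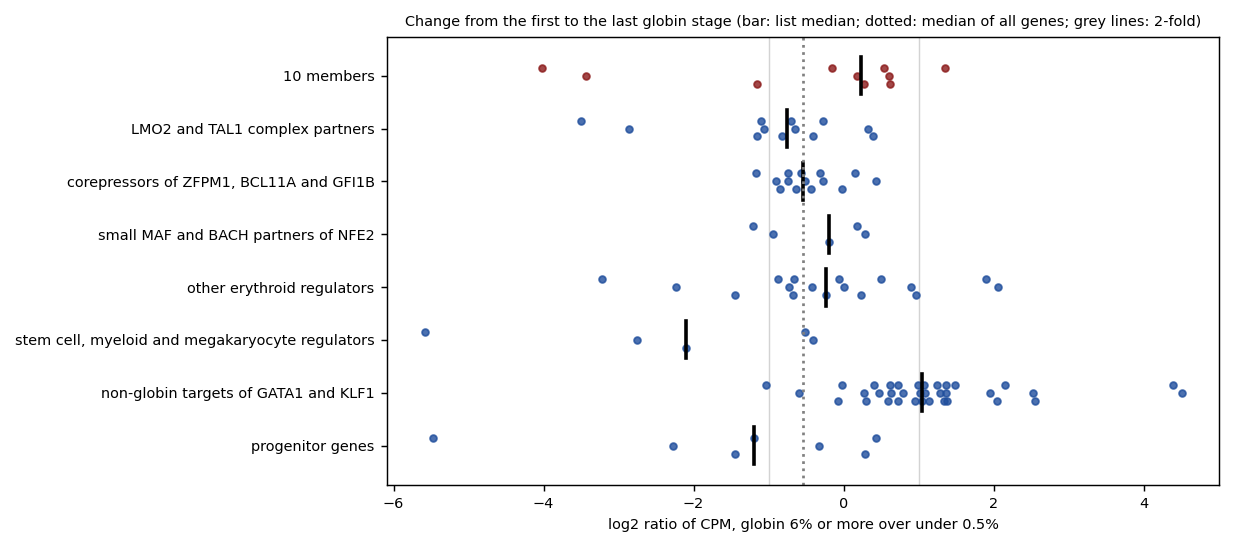
Log2 ratio of CPM between the last and first globin stage (horizontal axis) for the 10 factors and 7 lists, 1 point per tested gene, with a bar at each median, a dotted line at the median of all genes and grey lines at 2-fold. The target list has its median at 1.05 and the complex partners at -0.76, and among the 10 factors Myb and Gata2 lie farthest left and Nfe2 farthest right.

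The factors were next compared between cell classes. Megakaryocyte-like cells held 14 of 14 megakaryocyte markers, endothelial-like cells 14 of 14 endothelial markers with at least 1 UMI, and stromal-like cells 14 of 14 markers of LEPR stromal cells. Erythroid marker RNA was present in all of them, with a summed level of 2822 CPM in megakaryocyte-like, 5076 in endothelial-like and 3142 in stromal-like cells against 39247 in erythroid-like cells. Endothelial-like cells also carried 6157 CPM of LEPR stromal and 2864 CPM of pericyte markers beside 9318 CPM of their own. They held 2075 CPM of fibroblast and 889 CPM of stem and progenitor cell markers, lists that both contain Cd34 (420 CPM). Stromal-like cells held 4951 CPM of osteoblast and 1211 CPM of monocyte and macrophage markers. The former list shares Col1a1 with the fibroblast list and the latter Vcam1 with the LEPR stromal list. Megakaryocyte-like cells carried 10 of 10 neutrophil and granulocyte progenitor markers at 5392 CPM, and 9 of 11 mast cell and basophil markers at 111 CPM, lists that summed to 3.16 and 0.848 CPM in erythroid-like cells. Megakaryocyte-like cells also carried 8 of 9 B cell markers at 377 CPM, 8 of 10 monocyte and macrophage markers at 676 CPM and 8 of 9 T and NK cell markers at 192 CPM, against 1.75, 7.76 and 0.254 CPM. Stem and progenitor cell markers summed to 301 CPM in them against 105 CPM, with Cd34 at 40.5 against 0.0671 CPM, and fibroblast markers to 501 against 6.43 CPM. Their part in the levels of the factors was not tested.

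Megakaryocyte-like cells shared most of the factors. Compared with all erythroid-like cells, Gata2, Myb and Nfe2 were at least 2-fold higher (33.1% of 12499 genes were) and Klf1 and Bcl11a at least 2-fold lower (12.8% were). These counts, 3 and 2 of 10, are near the shares of all genes, whose median log2 ratio was 0.31. The levels are therefore read gene by gene. Gata2 was at 24.9 CPM in lane 1 and 28.1 CPM in lane 2 (mean 26.5, 19.0 to 36.1), 7.57-fold above erythroid-like cells and above the first stage. Myb was at 108 and 103 CPM (mean 105, 89.4 to 123), 3.38-fold above all erythroid-like cells. That was above the 81.9 CPM of the first stage but below the 146 CPM (136 to 156) of the 321 erythroid-like cells with the least globin. Nfe2 was at 81.5 and 85.6 CPM (mean 83.6, 69.6 to 99.5), 2.29-fold higher. Gata1 at 90.9 CPM (76.3 to 107) and Gfi1b at 75.3 CPM (62.1 to 90.5) lay within counting error of the erythroid-like level. Lmo2 at 230 CPM, Zfpm1 at 219 CPM and Tal1 at 90.9 CPM were lower by less than 2-fold. The ratio of Gata2 to Gata1 was 0.292 (0.200 to 0.418), above that of every erythroid stage, though its interval met that of the 321 erythroid-like cells with the least globin. The log2 ratio of Gata2, 2.92, was 2.39 with clusters formed at resolution 0.4 and 3.78 as the mean of the cells' own CPM. At that resolution Nfe2 was under 2-fold higher (log2 0.67), and with that mean Zfpm1 was over 2-fold lower (log2 -1.43).

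Klf1 was lower in megakaryocyte-like cells, with 27.6 and 26.1 CPM in the lanes (mean 26.9, 19.2 to 36.5) against 279 CPM in erythroid-like cells, a 10.4-fold difference. Its log2 ratio, -3.38, lay between -3.61 and -2.77 over the alternatives. The stromal-like level, 23.3 CPM (19.5 to 27.6), had an interval that overlapped that of the megakaryocyte-like cells, and the part of free RNA in both was not tested. It is a pooled level, and the stromal-like clusters of 1077 and 864 cells held 15.5 and 43.6 CPM of Klf1. Per 1000 UMIs of 19 erythroid markers other than globin, Klf1 made 16.8 UMIs in megakaryocyte-like, 18.0 in stromal-like and 20.0 in erythroid-like cells, whereas Gata1 made 56.8, 9.19 and 7.43. Bcl11a was at 34.2 CPM (25.5 to 44.9), 3.16-fold below the erythroid-like cells and above the 13.3 CPM of all stromal-like cells. The stromal-like cluster of 864 cells alone held 26.9 CPM of Bcl11a, inside that interval.

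**Figure D5:**
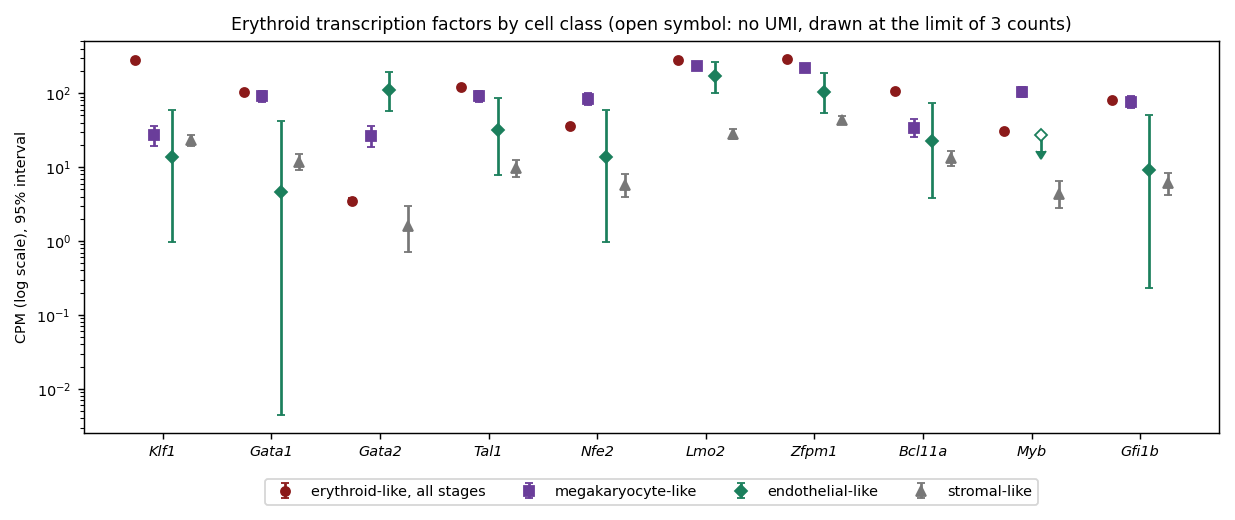
CPM on a log scale with exact 95% intervals for the 10 factors in erythroid-like cells of all stages (circles), megakaryocyte-like (squares), endothelial-like (diamonds) and stromal-like cells (triangles); an open symbol marks no UMI and stands at the limit of 3 counts. Gata2 is highest in endothelial-like cells with 109 CPM, and Klf1 is at 26.9 CPM or less in the other 3 classes.

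Endothelial-like cells expressed Gata2, which is known to control endothelial genes, at 111 CPM in lane 1 and 108 CPM in lane 2 (mean 109, 56.6 to 191), 31.2-fold above erythroid-like cells. This log2 ratio, 4.97, lay between 4.11 and 5.27 over the alternatives. Each lane gave 12 Gata2 UMIs, in 16 of the 49 cells (32.7%) over both lanes, beside 1 and 0 Gata1 UMIs. Lmo2, which also acts in blood vessel formation, was at 169 CPM (101 to 265) and Zfpm1 at 105 CPM (53.3 to 185). Both were above the pooled stromal-like level in CPM, though the stromal-like cluster of 864 cells held 91.8 CPM of Zfpm1. Per 1000 UMIs of the erythroid markers other than globin, Lmo2 made 84.9 UMIs (50.7 to 133) against 21.5 (18.3 to 25.1) in stromal-like cells. Zfpm1 made 52.8 (26.8 to 93.2) against 33.8 (29.7 to 38.2), with intervals that overlap. Tal1 rested on 4 and 3 UMIs and was not separated from the stromal-like level at 31.9 CPM (7.71 to 86.8). The remaining factors had 0 to 3 UMIs per lane in these cells, and Myb had none, which at 3 counts allows up to 27.4 CPM. Against erythroid-like cells 7 members were at least 2-fold lower, where 15.1% of 12240 genes were, and 1 was higher, where 53.2% were. For Klf1, Gata1, Nfe2, Bcl11a and Gfi1b that call rests on under 3 UMIs as mean of the lanes.

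Stromal-like cells, pooled, held all 10 factors at least 2-fold below erythroid-like cells, where 17.7% of 13978 genes were lower and 47.9% higher. Each factor was higher in the stromal-like cluster of 864 cells than in that of 1077. The former held 23.3 CPM of Gata1, 10.8 of Nfe2 and 91.8 of Zfpm1, the latter 7.15, 3.77 and 23.5 CPM. Gata2, at 2.99 CPM in the cluster of 864 cells, was there less than 2-fold below erythroid-like cells. The levels that follow are those of the pooled cells. Klf1 was at 22.6 and 23.9 CPM in the lanes (11.99-fold lower), Gata1 at 10.7 and 13.1 CPM (8.70-fold), Tal1 at 8.72 and 10.7 CPM (12.5-fold) and Gfi1b at 5.70 and 6.37 CPM (13.3-fold). Zfpm1, at 43.7 CPM, was 6.64-fold lower, and Gata2, at 0.890 and 2.24 CPM, was 2.22-fold lower with an interval reaching under 2-fold (log2 -1.15, -2.29 to -0.21) and by less than 2-fold in lane 2 alone. Per 1000 UMIs of the same erythroid markers, Lmo2 made 21.5 and Tal1 7.50 UMIs in stromal-like cells against 19.9 and 8.71 in erythroid-like cells. Zfpm1 made 33.8 UMIs (29.7 to 38.2) against 20.8, Nfe2 4.39 against 2.62 and Gata2 1.22 against 0.251. The part of erythroid marker RNA in the members' levels was not tested. Barcodes called doublets were 2.34% of all. Without them the log2 ratio of Klf1 went from -3.58 to -4.28 and that of Gata1 from -3.12 to -3.82. That of Zfpm1 went from -2.73 to -3.64, and was -3.86 as the mean of the cells' own CPM. Over all alternatives the log2 ratio lay between -4.01 and -2.63 for Nfe2, -3.91 and -2.60 for Myb and -3.99 and -2.88 for Bcl11a. It lay between -4.38 and -3.51 for Tal1 and between -4.34 and -3.42 for Gfi1b.

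All 10 are protein-coding genes, placed here on build GRCm38 as annotated by GENCODE M21. Klf1 lies on chromosome 8 from 84901928 to 84905291 on the plus strand and Zfpm1 on the same chromosome and strand from 122282141 to 122337251, inside the span of the read-through gene Gm20388, which has no row of its own in the counts. Gata1 lies on chromosome X from 7959260 to 7978071 on the minus strand, and Gata2 on chromosome 6 from 88193891 to 88207032 on the plus strand. Tal1 lies on chromosome 4 from 115056426 to 115071755 and Myb on chromosome 10 from 21124935 to 21160984, and Nfe2 on chromosome 15 from 103248212 to 103258403. Chromosome 2 holds both Lmo2, from 103957986 to 103981878, and Gfi1b, from 28609450 to 28621982, and chromosome 11 holds Bcl11a, from 24078056 to 24174123. Lmo2, Bcl11a and Myb overlap genes on the opposite strand, none of which held more than 17 UMIs in erythroid-like cells, as the mean of the lanes.

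RefSeq promoter sequence of build GRCm38.p6 was matched for 8 of the 10 genes, with no entry for Nfe2 and Lmo2. The RefSeq start can differ from the GENCODE limits given above, and the Gata1 window lies inside them. Windows of 190 bases, from 250 to 61 bases before the RefSeq start, were searched on both strands for the GATA boxes AGATAA and TGATAA, the CACCC box CCNCNCCC, the E-box CANNTG and the AP-1-like motif TGACTCA. Of 10 windows of these 8 genes, 3 held a GATA box, beside 13.7% of all 32851 windows of that length, and 7 held a CACCC box, beside 34.2%. An E-box was in 3 of the 10, beside 57.3% of all, and TGACTCA in 0 of the 10, beside 3.34%. The windows with a GATA box belong to Klf1 and Tal1, which rose, and to Gfi1b, which stayed level. They are printed with those of Gata1, Gata2 and Myb, the pair of GATA factors and the gene with the largest fall, which held a CACCC box and no GATA box. Gata2 and Tal1 each had a second window that is not printed, with 6 and 4 CACCC boxes and no GATA box, and that of Gata2 overlaps an exon. Each printed window is written along the gene's own strand, and capitals mark a GATA box in the first 3 and a CACCC box in the other 3, on either strand.
Klf1 (chr8:84901732-84901921, plus strand): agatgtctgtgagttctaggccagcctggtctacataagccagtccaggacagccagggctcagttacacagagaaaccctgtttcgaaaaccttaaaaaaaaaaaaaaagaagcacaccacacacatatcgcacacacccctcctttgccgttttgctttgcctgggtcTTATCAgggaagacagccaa
Tal1 (chr4:115056176-115056365, plus strand): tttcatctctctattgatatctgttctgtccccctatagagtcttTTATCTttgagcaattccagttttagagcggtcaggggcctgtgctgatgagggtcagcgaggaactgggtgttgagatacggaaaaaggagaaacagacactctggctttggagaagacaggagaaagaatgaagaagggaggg
Gfi1b (chr2:28622043-28622232, minus strand): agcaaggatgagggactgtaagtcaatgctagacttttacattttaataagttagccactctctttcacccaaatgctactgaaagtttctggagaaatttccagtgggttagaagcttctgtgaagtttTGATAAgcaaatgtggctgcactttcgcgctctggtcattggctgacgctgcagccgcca
Gata1 (chrX:7967971-7968160, minus strand): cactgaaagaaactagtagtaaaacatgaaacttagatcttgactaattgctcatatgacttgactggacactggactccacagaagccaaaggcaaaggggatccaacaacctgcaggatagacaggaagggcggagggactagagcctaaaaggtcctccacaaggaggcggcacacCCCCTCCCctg
Gata2 (chr6:88193641-88193830, plus strand): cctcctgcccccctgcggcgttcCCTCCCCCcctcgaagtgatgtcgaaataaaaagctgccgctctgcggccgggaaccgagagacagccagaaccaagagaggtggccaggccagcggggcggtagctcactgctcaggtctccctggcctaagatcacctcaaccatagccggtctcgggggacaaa
Myb (chr10:21161045-21161234, minus strand): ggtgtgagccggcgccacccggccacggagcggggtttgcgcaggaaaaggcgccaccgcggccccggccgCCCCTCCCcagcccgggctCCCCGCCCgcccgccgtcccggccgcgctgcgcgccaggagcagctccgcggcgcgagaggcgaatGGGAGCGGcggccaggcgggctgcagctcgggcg
A match of letters is a description of the window and not a bound site.

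Genes whose pattern over 8 groups (the 5 stages and the megakaryocyte-like, endothelial-like and stromal-like cells) was most like that of each factor were ranked by Pearson correlation of log2(CPM + 1) over 9261 genes. All 8 groups come from the same library, and the erythroid stages share much of their profile. Klf1 was closest to the transferrin receptor gene Tfrc (r = 0.998), then Pabpc4 and Pnp. Gata1 was closest to Mrpl51 (r = 0.999), Gata2 to Nxn (r = 0.981), Tal1 to Uqcrh (r = 0.996), Nfe2 to Nt5c3 (r = 0.993), Lmo2 to Hras (r = 0.982), Zfpm1 to Haspin (r = 0.9997), Bcl11a to Adk (r = 0.995), Myb to Rsl24d1 (r = 0.994) and Gfi1b to Cox5b (r = 0.998).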

How the data were processed

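The deposited files hold UMI counts, genes by barcodes, for each of 2 samples. Labels number these as replicates 1 and 2, and they are called lanes here because they share cells. The counts were made with Cell Ranger (version 3.0.2 in the header, another in the methods) on mm10 and were not normalized. Lane 1 held 116827845 and lane 2 120556381 UMIs. The counts were summed per barcode, and barcodes with at least 200 genes and at most 20% mitochondrial UMIs were kept. The lanes share cells, so means of the lanes carry the intervals (exact Poisson for CPM, conditional binomial for ratios, Clopper-Pearson for shares, all 95%, with a limit of 3 counts where none was seen). With 1 biological sample no p-value was computed.

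Cells were clustered with Seurat 5.3.0 and sctransform 0.4.2 in R 4.3.3 (3000 variable genes without the 10 factors, 30 components, resolution 0.8), while per the labels the authors used Seurat 4.0. Clusters were named "-like" from fixed marker lists (at least 3 markers found, each in at least 10% of cells and at 25% or more of its highest cluster). In all 930 cells stayed unnamed. Endothelial cells shared a cluster with fibroblast-like cells, which was clustered again after this had been seen. Doublets were scored by Scrublet (scanpy 1.11.5, Python 3.11.15, expected rate 8%) and kept. Genes with at least 20 UMIs over both groups were compared, and called at 2-fold.

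The factors, lists and cuts were chosen with earlier results of these data known. Named genes were the 10 factors, up to 4 genes per list with the largest change among those with at least 50 UMIs, 3 nearest genes per factor, and 6 genes for the order of stages. Ldb1 and genes leading clusters were added with their values in view. The interval code was tested on simulated data. Alternatives were other limits on genes, UMIs per cell and mitochondrial share, each lane alone, doublet removal, totals without globin, the mean of cells' own CPM, other clustering settings, another order of cells, other folds, other limits on gene UMIs, and, added after seeing the data, leaving out clusters led by Gm26917, Lars2 or Hspa1b.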

Additional observations from a re-analysis of the deposited data

How the results depend on the processing

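The counts of factors that fell (2 to 3) and rose (0 to 3) at least 2-fold from the first to the last globin stage changed with few settings. With every gene holding a UMI, 25.4% of genes fell and 22.4% rose 2-fold, and with at least 100 UMIs 25.3% and 3.63%, and the 3 falling factors and Nfe2 were called under both limits. At 1.5-fold 3 factors rose (8.38% of all genes did) and 3 fell (47.9%), and at 3-fold 0 rose (1.55%) and 2 fell (16.3%). With cells ordered by 7 late genes Bcl11a fell by less than 2-fold, and no factor other than Zfpm1 (-0.59 to 0.60 on the log2 scale) changed direction under any alternative. The log2 ratio of Gata2 to Gata1 UMIs in the first stage was -3.21, and -2.86 as the mean of the cells' own CPM. With either lane alone it was -3.25 to -3.17, and in the last stage -7.05 to -6.80 (-7.98 with cells ordered by the 7 late genes), and 3 factors fell and 1 rose in both. In lane 2 alone 9 factors, not 10, were at least 2-fold lower in stromal-like than in erythroid-like cells.

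Shares of cells with a UMI follow the depth to which cells are thinned. That of Gata2 in the first stage was 4.00% at 4000 UMIs. That of Gata1 in the last stage was 9.77% at 1000 UMIs, 33.7% at 4000 UMIs and 15.7% in lane 2. That of Gata1 in stromal-like cells was 3.63% at 4000 UMIs and 2.15% in lane 2. At resolution 0.4 no endothelial-like class formed, so that setting gave no endothelial value. No paired analysis was possible because there is 1 group from 1 pool of mice. The main limits are that the mice were pooled, that lineage depletion and red cell lysis act on the stages compared, and that classes hold RNA of other cells.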

Other observations

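Cells of 1 globin stage were not alike in these factors. In the first stage, a cluster of 430 cells led by C2cd4a, Ydjc and Fam124a (median 66946 UMIs) and a cluster of 412 cells led by Prelid2, Rpp40 and Cmtm7 (median 18222 UMIs) had similar Gata2, at 11.5 CPM (9.79 to 13.3) and 9.68 CPM (7.06 to 13.0). In the same order, Bcl11a was at 159 CPM (152 to 165) and 70.8 CPM (63.3 to 78.9). Tal1 was at 113 CPM (108 to 119) and 59.9 CPM (53.1 to 67.4), and Zfpm1 at 220 CPM (213 to 228) and 130 CPM (119 to 140). Myb had the opposite order, with 79.1 CPM (74.6 to 83.8) and 114 CPM (105 to 125). Both lanes gave the same order for each of the 4 genes, but they hold the same cells, so this is not a replication. The clusters were formed without the 10 factors, these pairs were picked after their values were seen, and over all their cells the median globin share was 0.298% in the first and 0.108% in the second. The part of depth and of globin share in these differences was not tested.

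Gfi1b, level over the stages, differed between clusters of 1 stage. At 1 to 2.5% globin it was at 41.7 CPM (34.9 to 49.4) in 131 cells led by 1700034P13Rik, Serpinb6b and Mavs, against 95.3 CPM (89.7 to 101) in 448 cells led by Tac2, Hspa1a and Hist1h2ab and 79.5 CPM (74.1 to 85.2) in 340 cells led by Plek2 and Erfe. At 2.5 to 6% globin the same 3 clusters held 43.9, 99.3 and 68.7 CPM. Lmo2 went the other way, with 328 CPM (308 to 348) in the first of them and 260 and 275 CPM in the other two at 1 to 2.5% globin. Median depth was 48452, 49634.5 and 58121 UMIs in these clusters. The cluster led by Plek2 and Erfe, the latter the erythroferrone gene induced by erythropoietin, held more Tal1 (136 against 97.9 CPM) and more Bcl11a (126 against 96.0 CPM) than the cluster led by Tac2 at 1 to 2.5% globin.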
